A study of Homo sapiens with 6 samples.

Results

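The 43 collagen genes with a row of their own on the arrays were read across 6 cultures of RD18, a cell line established from an embryonal rhabdomyosarcoma, a tumour with features of immature muscle. They were chosen by name alone: every row whose single gene symbol is COL, a number, A and a number was taken, which gave 45 rows. Where a gene had several rows, the row with the highest mean over the 6 arrays stood for it, so that 43 of 18417 genes with a row are described. Of these, 11 encode fibrillar collagens, 9 encode collagens of basement membranes and 23 belong to the other classes. COL17A1 was not analysed here.

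The cultures came from 2 derivatives of RD18, NpBI-22 (miR-22 cells below) and NpBI-206AS. In miR-22 cells, doxycycline switches on the microRNA miR-22. Induced miR-22 cells had 6 days of doxycycline at 1 µg/ml and were profiled as 2 biological replicates; untreated miR-22 cells (labelled non-induced) had none and were also profiled as 2. NpBI-206AS cells, which the series calls additional controls, gave 1 array with the same doxycycline treatment and 1 without. What the NpBI-206AS construct makes is not stated in the labels, nor whether a line is 1 clone, so an effect of doxycycline and one of that construct cannot be told apart in its arrays. Values are log2 expression, on which 1 unit is a 2-fold difference. Array medians lay between 5.66 and 5.75, quartiles between 3.92 and 4.01 below and between 7.71 and 7.80 above. The arrays carry code prefixes: R715 for both induced miR-22 arrays, R509 for untreated replicate 1, and R587 for untreated replicate 2 and both NpBI-206AS arrays. If the prefix marks a batch, batch and miR-22 induction cannot be told apart in anything below that involves the induced miR-22 arrays.

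Collagens are proteins of the extracellular matrix built from 3 chains wound into a triple helix. The chains are folded and hydroxylated in the endoplasmic reticulum, exported as procollagens, trimmed outside the cell and cross-linked. Fibrillar collagens such as types I, III and V form the banded fibres of connective tissue; type IV collagen forms the sheet-like network of basement membranes; type VI collagen forms beaded filaments next to the basement membrane of muscle fibres. In muscle, most fibrillar collagen is made by fibroblasts, while muscle cells contribute to their own basement membrane. MicroRNAs such as miR-22 lower mRNAs that pair with their seed, the bases 2 to 8 of the mature strand.

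The sequences of both mature strands of miR-22 are shown because the induced microRNA is the intervention of the study; capitals mark the seed. Both come from RefSeq, GRCh38.p14, minus strand, at chr17:1713914-1713935 for the 3p strand and chr17:1713952-1713973 for the 5p strand.
hsa-miR-22-3p: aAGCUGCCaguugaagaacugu
hsa-miR-22-5p: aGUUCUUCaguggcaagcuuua
Transcript sequences of the collagen genes were not used here, so pairing of these seeds with collagen mRNAs was not examined.

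The collagen genes spanned the range of signal on the arrays. On all 6 arrays, 7 of the 43 lay over the array's upper quartile: COL3A1, COL5A2, COL1A1, COL14A1, COL4A1, COL4A2 and COL19A1. A further 18 lay over the median on all 6 arrays, 9 lay under the median but not always under the lower quartile, and 6 crossed the median. COL6A5, COL6A6 and COL8A1 lay under the lower quartile on all 6 and are not shown to be above background. The signal of a row also depends on its probes, so these positions place each row on its array and do not rank the genes by transcript number. COL3A1, the single chain of type III collagen of elastic and healing tissues, read 11.97 and 11.98 in induced and 11.85 and 11.68 in untreated miR-22 cells. NpBI-206AS cells without and with doxycycline had 11.57 and 11.86. It lay over the upper quartile in every culture, and its induced miR-22 arrays were the highest.

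**Figure D1:**
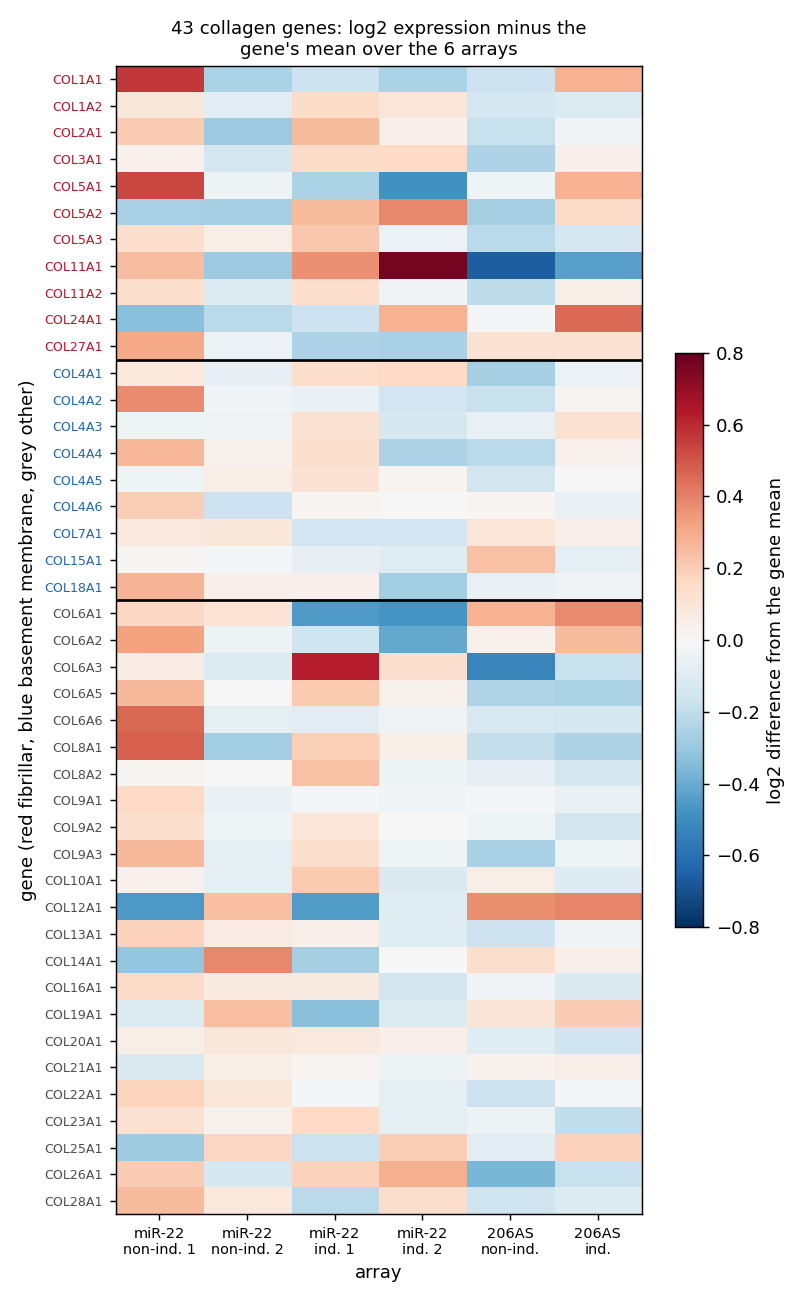
Colours show log2 expression of each of the 43 collagen genes (rows) on each of the 6 arrays (columns), minus the gene's mean over the arrays; red is above and blue below that mean. COL6A1 is blue on both induced miR-22 arrays and red on the other 4, while untreated replicate 1 holds the highest value of 18 genes.

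Replicate arrays of 1 group lay about as far apart in the collagen genes as over all genes with a row. Between the untreated miR-22 replicates the median absolute difference was 0.183 over the collagen genes and 0.208 over all genes. Between the induced replicates it was 0.159 and 0.152. The counts below were not taken over all genes, so they describe the collagen rows only. Untreated replicate 1 was above replicate 2 in 33 of 43 collagen genes, by a median of 0.16, and it held the highest of the 6 values in 18. COL1A1, a chain of the fibrils of skin, tendon and bone, read 10.25 in replicate 1 and 9.43 in replicate 2, a gap of 0.82. COL8A1, a short-chain collagen of vessel walls and the cornea, differed by 0.76 and COL5A1, a chain of type V collagen, by 0.57. In 25 of the 43 genes the gap between these replicates was larger than the difference between the means of induced and untreated cells. The induced replicates differed by at most 0.51, in COL6A3. Untreated replicate 2 and untreated NpBI-206AS cells, which share a code prefix, differed by 0.5 or more in 0 of 43 collagen genes, and untreated replicate 1 and untreated NpBI-206AS cells in 11. The median absolute difference between replicate 2 and these cells was 0.144 over the collagen genes and 0.115 over all genes. For replicate 1 it was 0.312 and 0.247.

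The main comparison asked which transcripts differ between induced and untreated miR-22 cells. None of the 43 collagen genes passed: limma called 0 at an adjusted p under 0.05, where it called 3.6% of all 33297 rows, 1.59% higher and 2.01% lower. Before adjustment, 3 collagen genes had a p under 0.05 (COL6A1, COL5A2 and COL5A1), against 21.6% of all rows. No collagen gene differed 2-fold; the differences ran from -0.62 to 0.59, and 39 of 43 were smaller than 0.5. The 95% intervals of 40 genes lay within 2-fold in both directions, and those of COL11A1, COL1A1 and COL5A1 reached beyond. The median difference was -0.014 over the collagen genes and -0.010 over all rows. Induced and untreated arrays did not overlap in 19 of the 43, with 7 higher and 12 lower, where 51.1% of all rows did not overlap.

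**Figure D2:**
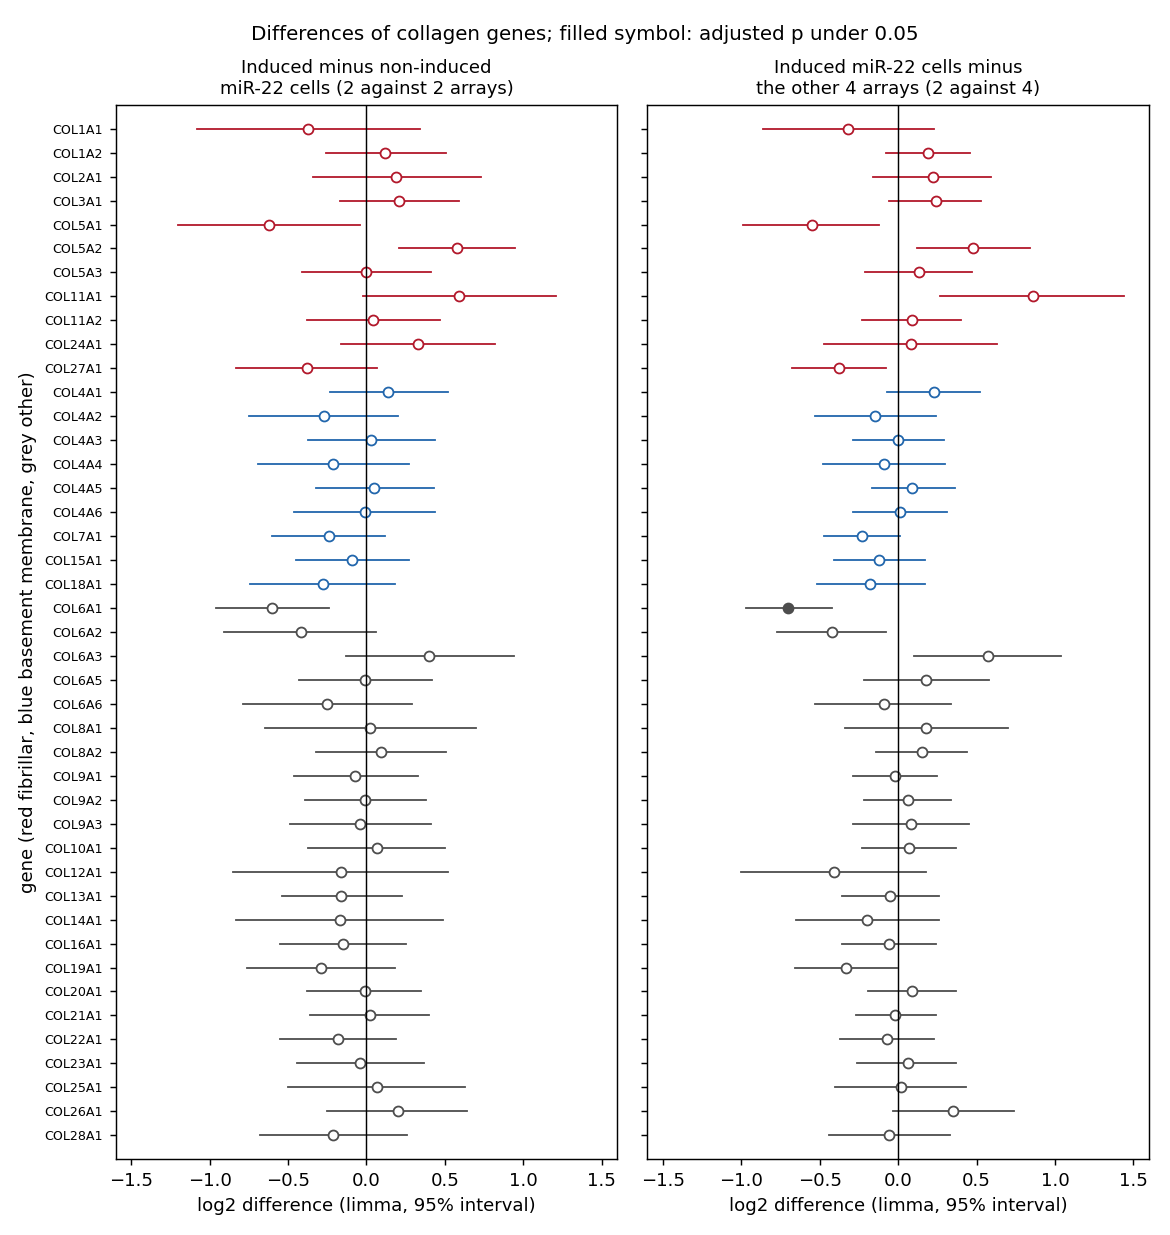
Points give the log2 difference of each collagen gene and lines its unadjusted 95% interval, for induced against untreated miR-22 cells (left) and induced miR-22 cells against the other 4 arrays (right); filled points had an adjusted p under 0.05. The only filled point is COL6A1 on the right, at -0.70.

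Among the 11 fibrillar collagens, 7 differences were positive and 4 negative, with a median of 0.125. Without untreated replicate 2 this median was -0.045 and without untreated replicate 1 it was 0.216, so its sign rested on 1 array. The largest lay in chains of types V and XI, minor fibrillar collagens that sit inside fibrils of types I and II and control their diameter. COL5A2 read 10.38 and 10.51 in induced and 9.87 and 9.86 in untreated miR-22 cells. In NpBI-206AS cells it read 9.86 without and 10.28 with doxycycline. The induced miR-22 arrays were the 2 highest of the 6, and the induced NpBI-206AS array came next. Its difference in miR-22 cells was 0.58 (SE 0.15, limma adjusted p = 0.0986). COL5A1 went the other way, with 6.88 and 6.65 in induced and 7.67 and 7.09 in untreated miR-22 cells, and 7.10 and 7.41 in NpBI-206AS cells without and with doxycycline. Its induced miR-22 arrays were the 2 lowest, but the untreated replicates lay 0.57 apart, close to the difference of -0.62 (SE 0.234, adjusted p = 0.207). COL5A3, the third chain of type V, read 6.51 and 6.25 against 6.43 and 6.34, with 6.08 and 6.16 in NpBI-206AS cells, and its groups overlapped. COL11A1 read 6.82 and 7.22 in induced and 6.70 and 6.16 in untreated miR-22 cells. NpBI-206AS cells had 5.79 and 6.02, below all 4 miR-22 arrays. The difference in miR-22 cells was 0.59 (SE 0.247, adjusted p = 0.246), and it was 0.32 without untreated replicate 2 and 0.39 without induced replicate 2.

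COL1A1 read 9.52 and 9.43 in induced and 10.25 and 9.43 in untreated miR-22 cells, so its groups overlapped. In NpBI-206AS cells it read 9.52 without and 9.96 with doxycycline. The difference of -0.37 in miR-22 cells (SE 0.285, adjusted p = 0.537) became 0.04 without untreated replicate 1 and thus rested on that array. COL1A2, the other chain of type I, read 5.73 and 5.68 against 5.67 and 5.49, with 5.44 and 5.47 in NpBI-206AS cells. Its arrays crossed the array medians, and its difference was 0.12 (adjusted p = 0.719). COL3A1 had a difference of 0.21 (SE 0.154, adjusted p = 0.506), with an interval from -0.17 to 0.59. COL27A1, a fibrillar collagen of cartilage, read 6.23 and 6.22 in induced and 6.78 and 6.43 in untreated miR-22 cells. NpBI-206AS cells had 6.60 on both arrays, so the induced miR-22 arrays were the 2 lowest, at a difference of -0.38 (SE 0.179, adjusted p = 0.299). COL24A1, a fibrillar collagen of developing bone, read 5.96 and 6.40 against 5.79 and 5.91. It was highest, at 6.58, in induced NpBI-206AS cells. COL2A1, the cartilage fibril chain, read 7.29 and 7.08 against 7.24 and 6.75, with 6.86 and 7.02 in NpBI-206AS cells. COL11A2 read 6.15 and 5.99 against 6.15 and 5.90, with 5.81 and 6.06. Both genes overlapped between the groups.

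**Figure D3:**
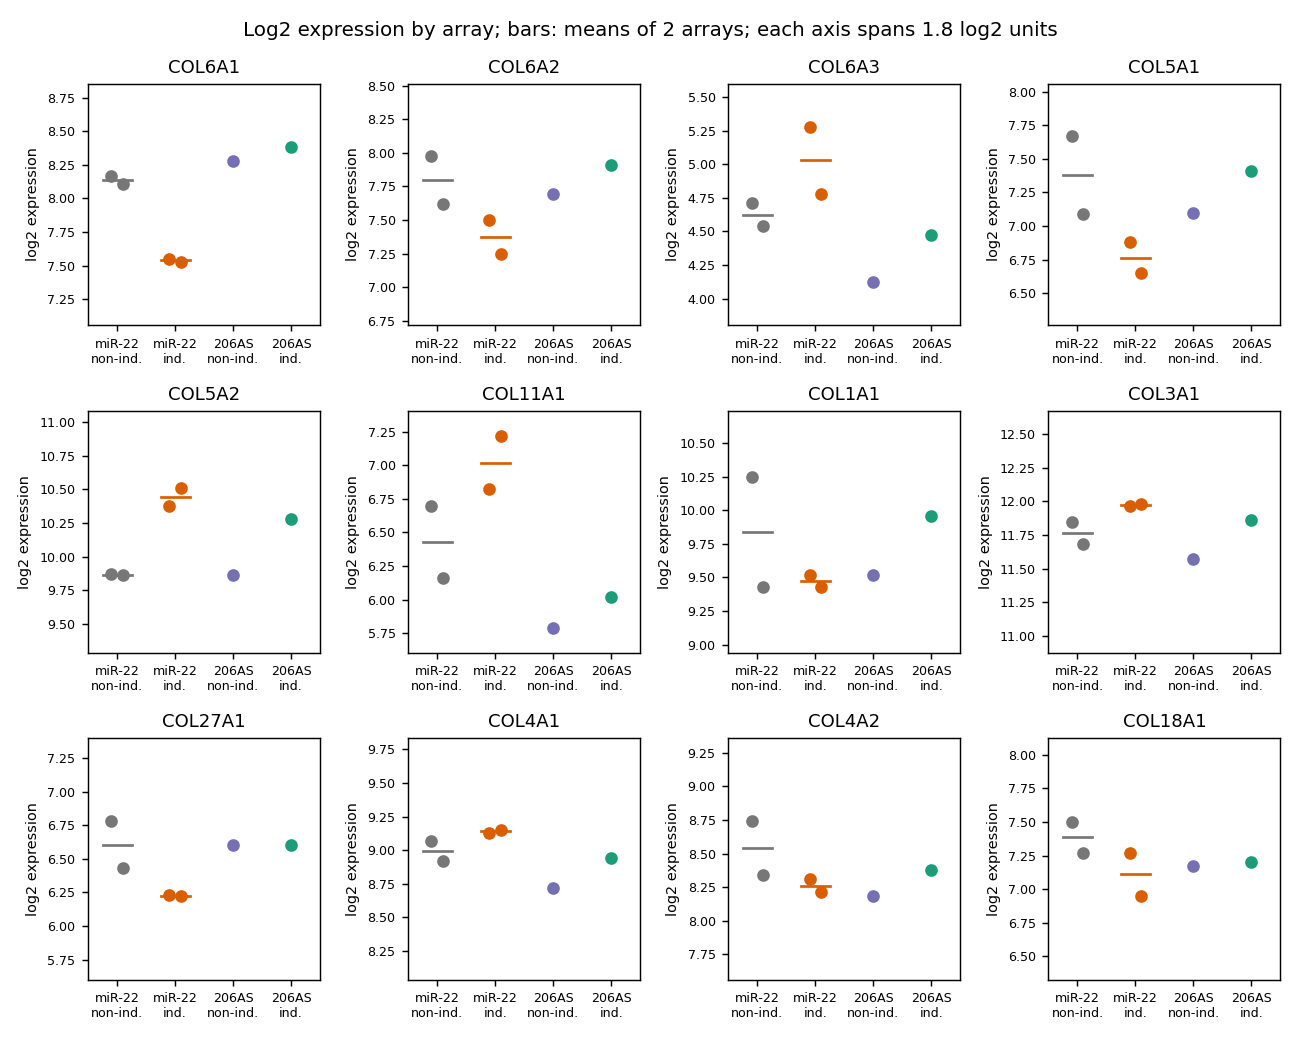
Log2 expression of 12 collagen genes on each array, grouped by cell line and doxycycline; points are arrays, bars are means of 2 arrays, and all axes span the same 1.8 log2 units. The induced miR-22 arrays of COL6A1 (7.55 and 7.53) lie below all other arrays, whereas the untreated replicates of COL1A1 lie 0.82 apart.

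None of the 9 basement membrane collagen genes passed. Over these genes the differences between induced and untreated miR-22 cells ran from -0.28 to 0.14, and the lowest adjusted p was 0.418. COL4A1 and COL4A2 encode the chains of the type IV trimer found in nearly all basement membranes. COL4A1 read 9.13 and 9.15 in induced and 9.07 and 8.92 in untreated miR-22 cells, and 8.72 and 8.94 in NpBI-206AS cells without and with doxycycline. COL4A2 read 8.31 and 8.21 against 8.74 and 8.34, and 8.18 and 8.38 in NpBI-206AS cells. In miR-22 cells the induced arrays were thus the higher ones for COL4A1, by 0.14 (SE 0.151), and the lower ones for COL4A2, by a difference of -0.27 (SE 0.189). The COL4A2 difference was -0.08 without untreated replicate 1 and -0.47 without untreated replicate 2. Neither gene passed (adjusted p = 0.664 and 0.483). COL4A3, COL4A4, COL4A5 and COL4A6, whose proteins form the type IV networks of kidney, lung, eye and smooth muscle, lay under the median on all 6 arrays. Their differences ran from -0.21 to 0.05. COL4A3 read 4.65 and 4.40 in induced and 4.49 and 4.50 in untreated miR-22 cells, with 4.47 and 4.65 in NpBI-206AS cells. COL4A4 read 4.82 and 4.45 against 4.96 and 4.73, with 4.48 and 4.73. The groups of all 4 genes overlapped. COL4A5 read 4.51 and 4.41 against 4.36 and 4.45, with 4.25 and 4.40. COL4A6 read 4.48 and 4.46 against 4.66 and 4.30, with 4.48 and 4.41.

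The 3 other genes of this class were lower on both induced than on both untreated miR-22 arrays. COL18A1, a proteoglycan collagen whose C-terminal fragment is endostatin, read 7.27 and 6.95 in induced and 7.50 and 7.27 in untreated cells. Its difference was -0.28 (SE 0.185, adjusted p = 0.469), and NpBI-206AS cells had 7.17 and 7.20, between the induced miR-22 arrays. COL15A1, its closest relative, differed by -0.09. COL7A1, the collagen of anchoring fibrils, read 5.85 on both induced arrays, 6.08 and 6.09 on the untreated ones, and 6.10 and 6.04 in NpBI-206AS cells. The replicates of COL7A1 differed by 0.01 in each group, and its difference was -0.24 (SE 0.144, adjusted p = 0.418).

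Upstream sequences of 2 loci are shown because partner chains are read against each other there: the type IV pair, whose genes share 1 upstream region, and COL6A2, a partner of COL6A1. COL4A1 and COL4A2 start head to head on opposite strands, and the 126 bases between their start sites (GRCh38.p14, chr13:110307158-110307283, RefSeq, plus strand, reading towards COL4A2) serve as the upstream side of both genes. For COL6A2 the 250 bases before its start are given (chr21:46097862-46098111, plus strand). Capitals mark the motif CCAAT in the first stretch and the TATA box, TATAAA, in the other.
COL4A1/COL4A2: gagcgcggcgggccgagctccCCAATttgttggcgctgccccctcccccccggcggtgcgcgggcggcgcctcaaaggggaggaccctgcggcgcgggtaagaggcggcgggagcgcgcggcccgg
COL6A2: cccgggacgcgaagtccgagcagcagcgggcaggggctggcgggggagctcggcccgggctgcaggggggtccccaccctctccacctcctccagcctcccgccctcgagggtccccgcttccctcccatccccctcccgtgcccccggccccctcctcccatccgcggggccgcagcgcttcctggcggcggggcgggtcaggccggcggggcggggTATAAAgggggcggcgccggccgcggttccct
The shared stretch holds 1 CCAAT motif and 1 GC box (searched as GGGCGG). The COL6A2 stretch holds 1 TATA box and 4 GC boxes, some of which lie close together. The E-box bound by muscle regulators (searched as CANNTG) is in neither. Every motif was searched on both strands. In windows of 300 bases around gene starts (250 before and 50 after, 1 per gene), the CCAAT motif was in 35.7%, the GC box in 44.6%, the TATA box in 12.0% and the E-box in 68.9% of 27305 genes, and in 9, 18, 4 and 17 of the 31 collagen genes with such a window.

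Type VI collagen held the only collagen gene called in any comparison. Its main trimer is built from the chains of COL6A1, COL6A2 and COL6A3, and defects in these genes cause muscular dystrophies. COL6A1 read 7.55 and 7.53 in induced and 8.17 and 8.11 in untreated miR-22 cells, and 8.28 and 8.38 in NpBI-206AS cells without and with doxycycline. The 2 induced miR-22 arrays were the lowest and lay apart from the other 4. Against untreated miR-22 cells the difference was -0.60 (SE 0.146, limma adjusted p = 0.0872), and with the dimmer 50% of rows left out it passed (adjusted p = 0.0477). COL6A2 read 7.50 and 7.25 in induced and 7.98 and 7.62 in untreated miR-22 cells, and 7.69 and 7.91 in NpBI-206AS cells. Its 2 induced miR-22 arrays were also the lowest, at a difference of -0.42 (SE 0.196, adjusted p = 0.293). COL6A3 stood the other way round: 5.28 and 4.78 in induced, 4.71 and 4.54 in untreated miR-22 cells, and 4.12 and 4.47 in NpBI-206AS cells. It lay under the median on all 6 arrays, and its difference of 0.40 (SE 0.216, adjusted p = 0.357) was carried more by induced replicate 1 than by replicate 2. COL6A5 and COL6A6, alternative partners of the COL6A1 chain, lay under the lower quartile on all 6 arrays, between 2.57 and 3.08 and between 3.19 and 3.79.

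The remaining classes gave no call in the main comparison either. Of 10 fibril-associated collagens (FACIT, which bind to the surface of fibrils), 9 differences were negative, but all were between -0.29 and 0.02. COL14A1, which binds type I fibrils, read 8.94 and 9.21 in induced and 8.90 and 9.59 in untreated miR-22 cells, with 9.35 and 9.25 in NpBI-206AS cells. Its groups overlapped. COL19A1, a collagen of basement membrane zones, read 8.01 and 8.24 against 8.24 and 8.59, and 8.45 and 8.55 in NpBI-206AS cells, at a difference of -0.29 (SE 0.19, adjusted p = 0.454). COL12A1, the FACIT of tendon and muscle sheaths, read 7.06 and 7.41 against 7.05 and 7.75, with 7.88 and 7.90 in NpBI-206AS cells. COL22A1, of the myotendinous junction, COL13A1, of the neuromuscular junction, and COL25A1, needed for motor innervation, differed by -0.18, -0.16 and 0.07. COL9A1, COL9A2 and COL9A3, the chains of the cartilage FACIT type IX, differed by -0.07, -0.01 and -0.04. Across the 6 arrays they ran from 4.85 to 5.07, from 6.22 to 6.49 and from 6.67 to 7.19, and their groups overlapped. COL16A1, COL20A1, COL21A1, COL23A1 and COL28A1 differed by -0.15, -0.01, 0.02, -0.04 and -0.21. COL26A1 read 8.08 and 8.18 in induced and 8.10 and 7.77 in untreated miR-22 cells, with 7.53 and 7.72 in NpBI-206AS cells, and overlapped likewise. The 3 short-chain collagens COL8A1, COL8A2 and COL10A1 differed by 0.02 to 0.09. COL8A1 ran from 3.15 to 3.91 and COL8A2 from 5.84 to 6.22.

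A second comparison set the induced miR-22 arrays against all 4 other arrays, which differ in line, doxycycline and code prefix. Of the 43 collagen genes limma called 1, COL6A1, lower, where it called 13.7% of all rows, 6.32% higher and 7.43% lower. COL6A1 had a mean of 7.54 ± 0.0197 (SD, n = 2) in induced miR-22 cells and 8.24 ± 0.119 (SD, n = 4) in the others, a 1.62-fold lower level (log2 difference -0.70, SE 0.12, adjusted p = 0.0102, lower on 2 of 2 arrays). Its interval ran from -0.97 to -0.42. Without induced replicate 1 its adjusted p was 0.0828 and without induced replicate 2 it was 0.0762, with differences of -0.71 and -0.68. Before adjustment, 3 collagen genes at p under 0.05 were higher (COL11A1, COL5A2 and COL6A3) and 5 lower (COL6A1, COL5A1, COL27A1, COL6A2 and COL19A1), against 28% of all rows. Groups did not overlap in 6 higher and 6 lower genes, against 37.8% of all rows.

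The other genes of this comparison did not pass on the deposited values with all rows. COL11A1 had the largest difference, 0.86 (SE 0.25, adjusted p = 0.063), with 7.02 ± 0.283 (SD, n = 2) against 6.17 ± 0.386 (SD, n = 4). COL5A2 differed by 0.48 (adjusted p = 0.085), COL5A1 by -0.55 (0.0979), COL27A1 by -0.38 (0.0972), COL6A2 by -0.42 (0.108) and COL6A3 by 0.57 (0.113). COL11A1 passed with each array centred on its median (0.92, adjusted p = 0.0486) and with the dimmer rows left out (adjusted p = 0.0327). COL5A2 passed with the dimmer rows left out (adjusted p = 0.0489). Calls were also gained when a control array was left out. Without untreated replicate 1, the array with prefix R509, 6 collagen genes were called against 22.4% of all rows: COL6A1, COL12A1 and COL19A1 lower, and COL11A1, COL26A1 and COL8A1 higher. COL8A1 was among those under the lower quartile. Without induced NpBI-206AS cells, COL5A2 was called beside COL6A1, at 0.58 (adjusted p = 0.0363).

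In NpBI-206AS cells, with 1 array per condition and no test, 28 of 43 collagen genes were higher with doxycycline and 15 lower, by a median of 0.103 against 0.002 over all rows. None of the 43 was 2-fold apart, where 0.673% of all rows were. None reached 0.5 in log2 units either, against 4.93% of all rows. The higher genes included 10 of the 11 fibrillar collagens: COL24A1 differed by 0.48, COL1A1 by 0.44, COL5A2 by 0.42, COL5A1 by 0.31 and COL3A1 by 0.28. The type VI genes COL6A3, COL6A2 and COL6A1 were higher by 0.35, 0.21 and 0.10. The lowest difference was that of COL15A1, at -0.31. Without a replicate these differences have no error.

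**Figure D4:**
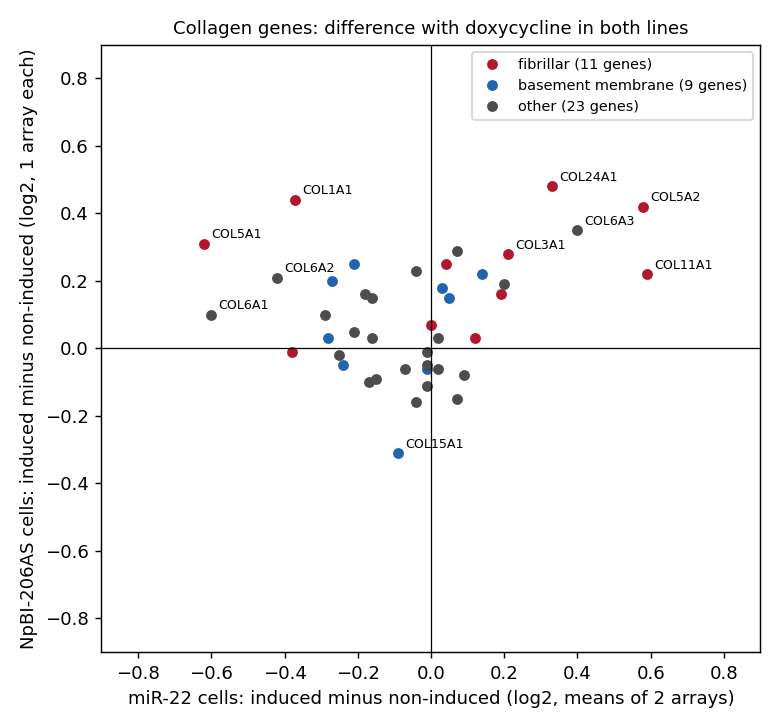
Each point is a collagen gene; the horizontal axis gives its log2 difference between induced and untreated miR-22 cells and the vertical axis the same for the 2 NpBI-206AS arrays. COL5A2 is to the right and high in both lines (0.58 and 0.42), whereas COL6A1 (-0.60 and 0.10) and COL5A1 (-0.62 and 0.31) lie on the left.

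The difference between the 2 lines' responses was tested as an interaction. Limma called 0 of 43 collagen genes and 0% of all rows, and 1 collagen gene, COL6A1, had an unadjusted p under 0.05, against 8.88% of all rows. COL6A1 was -0.70 apart (SE 0.252, adjusted p = 0.521), COL5A1 -0.93 (SE 0.405, adjusted p = 0.588) and COL1A1 -0.81 (SE 0.493, adjusted p = 0.706). COL5A2 was left with 0.16 (SE 0.259). The signs of both responses were the same in 26 of the 43 genes, and across genes, which are not independent replicates, they correlated at r = 0.22 as a description.

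Without doxycycline, the lines themselves were compared, 1 NpBI-206AS array against 2 miR-22 arrays. NpBI-206AS cells were lower in 34 of 43 collagen genes, with a median difference of -0.146 against -0.027 over all rows. Limma called 0 of 43 and 0% of all rows, and 0 of 43 had an unadjusted p under 0.05, against 3.44% of all rows. The largest differences were those of COL11A1 (-0.64), COL6A3 (-0.50), COL12A1 (0.47) and COL26A1 (-0.41). COL11A1, COL6A3 and COL26A1 were lower in NpBI-206AS cells than on both untreated miR-22 arrays. COL12A1 read 7.88 in NpBI-206AS cells, 7.05 in untreated replicate 1 and 7.75 in replicate 2, so its difference lay mostly against replicate 1. Without untreated replicate 1 the median was -0.072, and without replicate 2 it was -0.232. This comparison uses the same untreated miR-22 arrays as the main one.

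Chains of 1 trimer were also set against each other within each array, for 16 pairs of partners. The level of such a difference depends on the probes of both genes; only its change between arrays is read. COL5A1 minus COL5A2 was -3.50 and -3.86 in induced and -2.20 and -2.77 in untreated miR-22 cells, and -2.76 and -2.87 in NpBI-206AS cells. It was thus lower on both induced miR-22 arrays than on the other 4, with a change of -1.20 against untreated miR-22 cells and -1.03 against all 4. COL6A1 minus COL6A3 was 2.27 and 2.75 in induced and 3.46 and 3.57 in untreated miR-22 cells, and 4.15 and 3.91 in NpBI-206AS cells. It was lowest on the induced miR-22 arrays, with a change of -1.26 against all 4 others. COL4A1 minus COL4A2 was 0.82 and 0.94 in induced and 0.34 and 0.59 in untreated miR-22 cells, and 0.54 and 0.55 in NpBI-206AS cells, a change of 0.42 and 0.37. COL11A1 minus COL11A2 was 0.67 and 1.23 against 0.55 and 0.26, with -0.02 and -0.05 in NpBI-206AS cells. COL6A1 minus COL6A2 overlapped between the groups, at 0.05 and 0.28 against 0.19 and 0.50, so no change of this pair was seen beyond the spread between replicates. An exact two-sided permutation test of 2 against 4 arrays cannot go below p = 0.0667. That value was reached by COL5A1 with COL5A2, COL6A1 with COL6A3, COL4A1 with COL4A2 and COL11A1 with COL11A2, each with an adjusted p of 0.213 over the 16 pairs. It was also reached by COL6A1 with COL6A5, but COL6A5 is not shown to be above background, so that pair is not read as a change between 2 chains. The 2 against 2 test cannot go below 0.333.

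**Figure D5:**
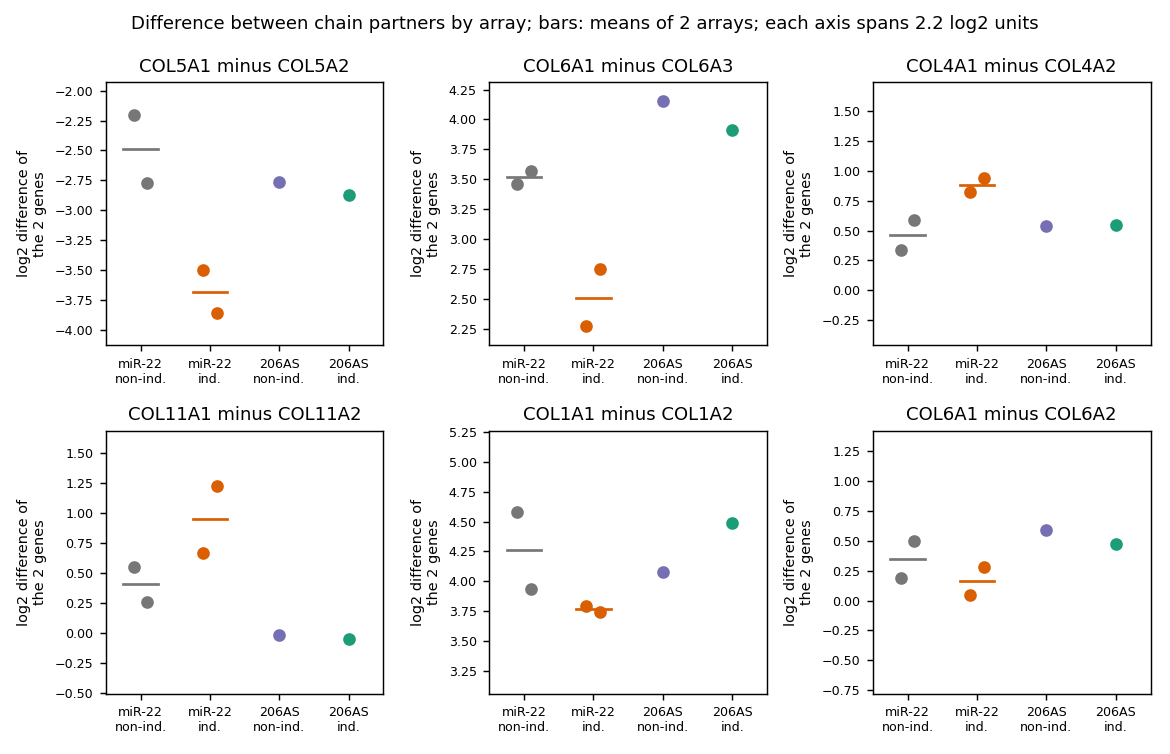
Each panel gives, for every array, the log2 expression of 1 collagen gene minus that of a partner chain; bars are means of 2 arrays and all axes span 2.2 log2 units. COL5A1 minus COL5A2 and COL6A1 minus COL6A3 are lowest on both induced miR-22 arrays, while COL6A1 minus COL6A2 overlaps.

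Genes that make, export, link and bind collagen were read from 8 lists with 86 entries, of which limma called 4 in the main comparison (4.65%, beside 3.6% of all rows). It called 2 of 7 cross-linking genes lower, 1 of 11 basement membrane partners lower and 1 of 14 fibril-associated partners higher. It called 0 of 18 modification and folding genes (5 at an unadjusted p under 0.05), 0 of 9 export genes (2), 0 of 8 propeptide processing genes (1), 0 of 10 receptors (3) and 0 of 9 degrading proteases (2). Over the 8 lists 31.4% of entries had an unadjusted p under 0.05, beside 21.6% of all rows. The fallen cross-linking genes were LOXL4 and LOX, lysyl oxidases that link collagen and elastin. LOXL4 read 5.56 and 5.69 in induced and 7.31 and 7.66 in untreated miR-22 cells, a difference of -1.86 (adjusted p = 0.0194); LOX differed by -1.11 (adjusted p = 0.034). LAMC1, the common gamma chain of laminins, fell by 0.96 (adjusted p = 0.0366), and THBS1, the matricellular protein thrombospondin, rose by 1.02 (adjusted p = 0.0433). The basement membrane partners had a median difference of -0.594 beside -0.010 over all rows, and the type IV collagen genes of the same structure one of 0.011.

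Against all 4 other arrays, 18 of the 86 entries were called (20.9%, beside 13.7% of all rows). Of the 11 basement membrane partners 5 were called lower, where 7.43% of all rows were: LAMC1, LAMB1 and LAMA2 of the laminins, the linker NID1 and the proteoglycan HSPG2. Of the cross-linking genes LOX, LOXL1 and LOXL4 were lower. In modification and folding, the collagen chaperone SERPINH1 was higher, by 0.78 (adjusted p = 0.00665), as was the glycosyltransferase COLGALT1; the prolyl hydroxylase P3H3 and the folding enzyme FKBP14 were lower. Single genes were called in the remaining lists: TRAPPC3 of procollagen export, GP6 of the receptors and MMP2 of the proteases higher, and PCOLCE, the enhancer of propeptide cleavage, lower. Among fibril-associated partners THBS1 and DCN were higher; DCN also stands in the fibroblast list. Both comparisons use the same induced and untreated miR-22 arrays.

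Markers of the labelled cell type and of other collagen-producing cells were read beside these values. Of 13 skeletal muscle lineage markers, 6 lay over the upper quartile on all 6 arrays. Among them were the regulators MYOD1 and MYOG and the filament gene DES. MYF5 and MYF6 lay under the median on all 6. In the main comparison 4 of the 13 were called lower (MYH3, MYH8, DES and ACTC1), where 2.01% of all rows were. Of the 13 differences 10 were negative and 3 positive, those of MYF6 (0.52), PAX7 (0.33) and MYF5 (0.04). Against the other 4 arrays limma called MYF6 higher (0.55, adjusted p = 0.0224), where 6.32% of all rows were. It called 3 markers lower there, DES, CDH15 and CHRND, where 7.43% of all rows were. The summed level of all 13 was 12.81 to 12.88 in induced and 13.44 to 13.63 in untreated miR-22 cells, and 13.00 and 13.09 in NpBI-206AS cells. Bright rows weigh most in this sum. Among them ACTC1 read 11.17 and 11.16 in induced and 12.13 and 12.20 in untreated miR-22 cells. In NpBI-206AS cells ACTC1 read 11.30 without and 11.19 with doxycycline, near the induced miR-22 arrays. Untreated NpBI-206AS cells were lower than untreated miR-22 cells in all 13 markers, with 0 called. These differences were -1.46 in MYH3, -1.14 in MYH8 and -0.86 in ACTC1. Against the other 4 arrays, MYH3, MYH8 and ACTC1 were not called. Of 11 fibroblast markers THY1 alone was called in the main comparison, higher by 1.51 (limma adjusted p = 0.0253). The summed level of the list was 10.54 to 10.72 in induced miR-22 cells and 9.62 to 9.77 on the other 4 arrays. Most of that gap lay in THY1: the other 10 markers summed to 9.05 and 9.25 in induced and 8.88 and 8.76 in untreated miR-22 cells, and to 8.68 and 8.49 in NpBI-206AS cells. Of the 11 differences 5 were positive and 6 negative, with a median of -0.031. Of the 11 fibroblast markers, THY1 lay over the upper quartile and PDGFRB and PRRX1 over the median on all 6 arrays. PDGFRA, DPT and TCF21 lay under the median and FAP under the lower quartile on all 6, and 4 crossed the median. Cartilage and bone, endothelial and epithelial markers had 0 calls among 9, 8 and 7 members in the main comparison (1, 2 and 0 at an unadjusted p under 0.05, beside 21.6% of all rows). Against the other 4 arrays limma called the fibroblast markers THY1 (1.33, adjusted p = 0.00577) and DCN (1.19, adjusted p = 0.0432) higher, where 6.32% of all rows were. It called 1 cartilage and bone marker lower, RUNX2 (-0.69, adjusted p = 0.0381), where 7.43% of all rows were. Of the endothelial and epithelial markers it called 0. The part of the cells behind all these markers in the collagen values was not tested. Fewer cells of a kind and less RNA per cell cannot be told apart in such cultures.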

How the data were processed

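Each of 6 RD18 cultures gave 1 array. The deposited table holds log2 values; per the submitters' processing notes, the authors used RMA and Partek. Settings and genome build are not stated there, and scanner files were not used here. RMA brings arrays to a common distribution, which would hide a shift shared by all transcripts, and the number of arrays limits the precision. Gene names came from the annotation of the platform, updated by gene ID with NCBI's table of GRCh38.p14 (19429 of 19460 rows with 1 symbol matched); 1754 rows with several symbols and 12083 with none were not named.

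Tests used limma 3.58.1 in R 4.3.3 with eBayes, two-sided, over all 33297 rows, with Benjamini-Hochberg adjustment and a threshold of 0.05. A mean per group over the 6 arrays (2 residual and 3.62 prior degrees of freedom) gave the main comparison, the interaction and the line comparison; a separate fit of 2 against 4 arrays (4 and 3.57) gave the comparison with all other arrays. Where 1 NpBI-206AS array stood alone, it was assumed to vary like the miR-22 groups. The labels call the miR-22 replicates biological; nothing more is said of their independence. The models were tested on simulated arrays, where the main comparison missed 2-fold shifts and many larger ones and the interaction missed shifts of every size tried. Only 66 or 67 rows were shifted at each size there, while the main comparison called 1200 rows of the data. With fewer shifted rows the adjustment is stricter, so the simulated recovery is not that of the data, where LAMC1 was called at -0.96. A count of 0 still does not show that genes did not differ. The sum of fibroblast markers without THY1 was added after seeing the data.

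The members, lists and rules were chosen with earlier results of these data known. Full values were given for called members, the 3 brightest and 3 most different of each class, and chain partners, of which COL6A5, COL6A6, COL8A1, COL8A2 and the COL9 genes were given by their range; from related lists, up to 4 called genes, and for the 5 lower basement membrane partners all 5. Alternatives were array centring, quantile normalization, cyclic loess, a filter on dim rows, a variance trend, row averaging, a replicate block and leaving out arrays.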

Additional observations from a re-analysis of the deposited data

Results flagged for a closer look

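Among the 4 arrays without induced miR-22, 5 of 43 collagen genes had 1 array far from the others (the gap to the nearest array over the range, above Dixon's critical value); chance alone flags about 1 in 20, and these arrays span 2 lines and both treatments. Induced NpBI-206AS cells stood apart in COL5A2 (10.28, nearest 9.87; ratio 0.967) and, within a range of less than 0.2, in COL4A3 (4.65, nearest 4.50; ratio 0.840). Untreated miR-22 replicate 1 stood apart in COL6A6 (3.79, nearest 3.25; ratio 0.901), COL8A1 (3.91, nearest 3.24; ratio 0.874) and COL21A1 (4.07, nearest 4.22; ratio 0.838). COL6A6 and COL8A1 lie under the lower quartile on all 6 arrays.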

How the results depend on the processing

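The count of collagen genes called in the main comparison was 0 under every alternative except that leaving out the dimmer 50% of rows, which keeps 27 members and tests fewer rows, called 1 (COL6A1). With 1 miR-22 array left out this comparison called 0 of all 33297 rows, so those counts of 0 say nothing about stability; without the dimmer rows it called 2609 of 16648. Against the other 4 arrays, the count of 1 became 2 with each array centred on its median and 3 without the dimmer rows, and it ranged from 0 to 6 with 1 array left out, where 897 to 7463 of all rows were called against 4576 with all arrays; the cause was not tested. The interaction and the comparison of the untreated lines called 0 of all rows in every setting run, so their counts of 0 collagen genes say nothing about stability either; the 2-fold count in NpBI-206AS cells was 0 under the settings run. With a replicate block the main count and the interaction count were 0 of 43, while over all rows the main comparison went from 1200 to 2955 calls; deviations of same-numbered replicates correlated at 0.196 over all rows, and with 2 pairs the samples share only a number. In the main comparison 20 of the 43 differences, none of them called, changed sign when 1 of the 4 miR-22 arrays was left out, 11 of them without untreated replicate 1. For example, COL1A1 ranged from -0.78 to 0.04, COL2A1 from -0.05 to 0.44, COL5A3 from -0.13 to 0.13, COL12A1 from -0.51 to 0.19 and COL14A1 from -0.52 to 0.17. COL5A3 was also 0.07 with arrays centred, 0.05 quantile-normalized and 0.02 with cyclic loess. Against the other 4 arrays COL24A1 ranged from -0.14 to 0.30. COL6A1 ranged from -0.63 to -0.53 in the main comparison and from -0.74 to -0.64 against the other 4 arrays, with adjusted p from 0.0477 to 0.464 and from 0.00495 to 0.0828. Centring each array moved the median of all rows in the main comparison from -0.010 to 0.061.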

Other observations

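COL11A2 had 3 rows with its single symbol. On 2 of them the 6 values were identical, at 5.39 and 4.47 in induced and 4.89 and 4.95 in untreated miR-22 cells, so that the induced replicates lay further apart than on the brighter row used above (6.15 and 5.99). A row named for both PNLIP and COL1A2 was not read as either gene.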
